A study of Mus musculus with 6 samples.

Results

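Lipid-associated macrophages are macrophages of fat tissue that gather around lipid, for example at dying adipocytes, and take it up for breakdown in lysosomes. TREM2, a surface receptor for lipids and lipoproteins, signals in these cells through the adaptor TYROBP, and the state is recognised by genes for lysosomal, lipid-handling and adhesion proteins. The members are 10 genes chosen by symbol: the receptor pair Trem2 and Tyrobp, the lysosomal genes Atp6v0d2, Lipa, Cd63 and Gpnmb, and the surface or secreted proteins Itgax, Cd9, Lgals3 and Spp1. Of the 10, 8 had a single-gene probe set among the 18193 genes measured, and Cd63 and Spp1 were not analysed here. Where a gene had several probe sets, the one with the highest mean over all arrays stands for it.

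White adipose tissue came from 3 wild-type and 3 KSR2-/- mice, and the RNA of each mouse was hybridised to 1 Affymetrix expression array. KSR2 is a scaffold protein that holds kinases of the Raf-MEK-ERK cascade together, and the study asked which genes differ in fat when it is missing. All animals were C57Bl6 females aged 6 months. Neither the fat depot nor the deleted part of Ksr2 is given in the sources used here, and replicate numbers name the arrays without pairing them.

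The arrays had similar medians, 22.4 to 24.2 on the linear intensity scale, and the median gene read 5.77 to 6.07 log2. Wild type 3 and knockout 3 carry animal numbers of a lower series than the other 4 arrays, so differences are also given within the higher-numbered series and within that lower-numbered pair. RNA integrity was read from Gapdh, whose 3' control probe set minus its 5' one gave 4.18 log2 in wild type 3 and 0.07 to 1.46 on the others. Mean levels of 5 mammary epithelial markers were also higher in that pair, 7.53 in wild type 3 and 6.58 in knockout 3 against 4.59 to 5.08 elsewhere. Every level below is log2 intensity, so a difference of 1 is a doubling, and levels of different probe sets cannot be ranked against each other.

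All 8 measured genes read higher in knockout fat, by 1.44 (Cd9) to 3.94 (Atp6v0d2) log2, and on every one the 3 knockout arrays lay above the 3 wild-type arrays. Such a separation upward was seen in 7.72% of all genes. The median difference of the 8 genes was 2.42, while the median over all genes was −0.04. None of the 8 passed limma at an adjusted p under 0.05 (adjusted p 0.197 to 0.303), a threshold that 0.0055% of all genes, 1 gene, passed. All 8 had an unadjusted limma p under 0.05, as did 6.71% of all genes in that direction.

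**Figure D1:**
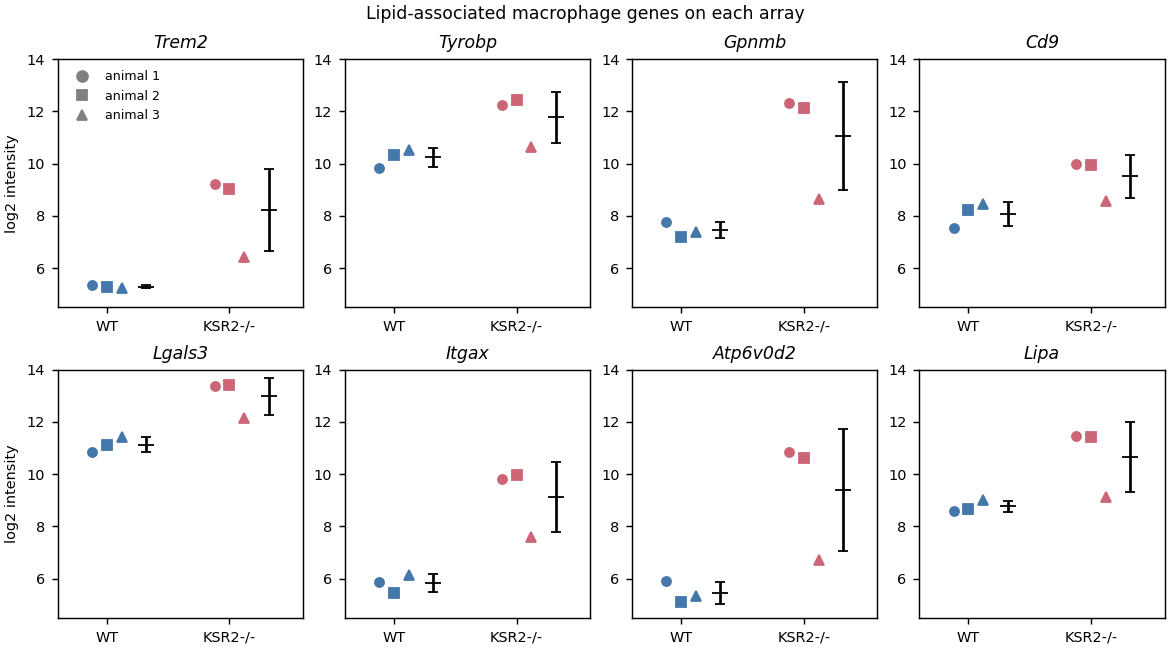
Log2 intensity of the 8 genes on each array, wild type in blue and KSR2-/- in red, with the mean and SD (n = 3) in black beside the points. Knockouts 1 and 2 stand far above wild type in every panel, and knockout 3, the red triangle, lies between them and the wild types.

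Within the knockout group the 3 animals were unequal. Knockouts 1 and 2 stood 1.89 (Cd9, knockout 2) to 5.41 (Atp6v0d2, knockout 1) above the wild-type mean and differed little from each other. Knockout 3 stood 0.36 (Lipa) to 1.77 (Itgax) above it, which is 13.4% to 45.8% of the mean shift of knockouts 1 and 2. Without knockout 3, all 8 genes passed limma (adjusted p 0.000936 to 0.0226), where 3.16% of all genes passed in that direction and 1.33% in the other. Leaving out any other single array passed 0 of the 8. Because these are bulk samples, more cells of a type and more RNA per cell cannot be told apart.

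Trem2 encodes the lipid receptor itself. Its main probe set read 5.34, 5.28 and 5.25 on the wild-type arrays, in the order of their numbers, and 9.23, 9.02 and 6.43 on the knockout arrays. The wild types stood close together, and the lowest knockout stood 1.09 above the highest of them. The means were 5.29 ± 0.05 and 8.23 ± 1.56 (SD, n = 3 each), a difference of 2.94 (SE 0.69) or 7.65-fold (limma adjusted p = 0.240). A second Trem2 probe set was dim on all arrays, 3.95 to 4.32 in wild type and 4.16 to 4.74 in knockout. It differed by 0.21 (SE 0.21), with overlapping groups, so the 2 probe sets of Trem2 disagree in size, and with both averaged the difference was 1.57.

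Tyrobp encodes DAP12, the signalling adaptor that TREM2 shares with other receptors of myeloid and natural killer cells. It read 9.85, 10.34 and 10.53 in wild type and 12.23, 12.44 and 10.65 in knockout. Knockout 3 stood only 0.12 above the highest wild type, although the groups did not overlap. The difference was 1.54 (SE 0.47, limma adjusted p = 0.296), or 2.90-fold. Subtracting Tyrobp from Trem2 on each array gave −4.51, −5.05 and −5.28 in wild type and −3.00, −3.43 and −4.22 in knockout. Trem2 was thus higher relative to its adaptor on all 3 knockout arrays, by 1.40 on average, a comparison chosen after the values were seen and given without a test.

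Atp6v0d2 encodes the d2 subunit of the vacuolar proton pump, an isoform known from osteoclasts and some macrophages. Levels were 5.91, 5.10 and 5.35 in wild type and 10.86, 10.62 and 6.70 in knockout. The difference of 3.94 (SE 1.04, limma adjusted p = 0.248), or 15.4-fold, was the largest of the 8 genes, and so was the SD in knockout, 2.33. Its second probe set gave 4.07 with no overlap. Atp6v0d1, the widely expressed d1 isoform, read 9.89, 10.48 and 10.64 in wild type and 10.42, 10.69 and 10.84 in knockout, a difference of 0.32 (SE 0.24, limma adjusted p = 0.677). The d2 minus d1 difference was −4.88 ± 0.79 in wild type. In knockouts 1 to 3 it was 0.44, −0.07 and −4.14, so knockout 3 lay inside the wild-type range on this measure.

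Lipa encodes lysosomal acid lipase, which splits the cholesteryl esters and triglycerides that macrophages take up. Its main probe set read 8.61, 8.67 and 9.02 in wild type and 11.46, 11.43 and 9.13 in knockout. The separation was narrow, with knockout 3 at 0.11 above the highest wild type. The difference was 1.91 (SE 0.60, limma adjusted p = 0.303), or 3.75-fold, and the other 2 probe sets gave 2.33 and 1.86, both without overlap and with knockout 3 at 0.52 and 0.54 above the highest wild type. Nceh1, another enzyme that hydrolyses cholesteryl esters in macrophages, stood 2.40 higher (SE 0.70, limma adjusted p = 0.277). Lipa minus Nceh1 was 2.85, 3.30 and 3.03 in wild type and 2.78, 2.15 and 2.77 in knockout. Lipa was thus lower relative to Nceh1 on all 3 knockout arrays, by 0.49 on average, given without a test.

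Gpnmb encodes a transmembrane glycoprotein of lysosomes and melanosomes that accumulates in lipid-loaded macrophages. It read 7.78, 7.18 and 7.37 in wild type and 12.32, 12.15 and 8.66 in knockout. All 3 knockouts exceeded the wild types, knockout 3 by 0.88. The difference was 3.60 (SE 0.92, limma adjusted p = 0.248), or 12.1-fold. Its second probe set was dim, 2.87 to 3.10 in wild type, and read 6.07 and 6.09 in knockouts 1 and 2. Knockout 3 read 2.77 there, below every wild type, so the 2 probe sets place knockout 3 on opposite sides.

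Itgax encodes integrin alpha X (CD11c), an adhesion receptor of dendritic cells and of macrophages that accumulate in obese fat. Levels were 5.89, 5.46 and 6.14 in wild type and 9.81, 9.98 and 7.60 in knockout. Knockout 3 stood 1.46 above the highest wild type, the widest gap of the 8 genes. The difference was 3.30 (SE 0.61, limma adjusted p = 0.197), or 9.86-fold. Its beta chain Itgb2, which it shares with other leukocyte integrins, differed by 1.90 (SE 0.53, limma adjusted p = 0.268). On each array Itgax minus Itgb2 was −2.63, −3.13 and −2.39 in wild type and −1.26, −1.21 and −1.48 in knockout. On this measure knockout 3 lay close to the other knockouts. Itgax minus Itgam, another integrin gene, overlapped between the groups, at 0.28, 0.04 and 2.36 in wild type and 2.13, 3.63 and 2.37 in knockout. Both comparisons are given without a test.

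Lgals3 encodes galectin-3, a lectin that binds sugars on cell surfaces and damaged lysosomes and was first described as the macrophage antigen Mac-2. It read 10.84, 11.12 and 11.43 in wild type and 13.37, 13.40 and 12.16 in knockout. The groups were 0.73 apart at their nearest points. The difference was 1.85 (SE 0.36, limma adjusted p = 0.197), or 3.60-fold. Lgals1, the related galectin-1, differed by 0.18 (SE 0.14, limma adjusted p = 0.698). It read 13.44 to 13.65 in wild type and 13.70 to 13.79 in knockout, near the top of the intensity scale, where a rise may not show.

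Cd9 encodes a tetraspanin found on lipid-associated macrophages and on many other cells, among them stromal and endothelial cells. Its values were 7.54, 8.23 and 8.44 in wild type and 10.00, 9.96 and 8.57 in knockout. Knockout 3 was 0.13 above the highest wild type. The difference, 1.44 (SE 0.43, limma adjusted p = 0.285), or 2.71-fold, was the smallest of the 8 genes. Among 7 measured tetraspanin relatives, 4 were higher and the median difference was 0.15 (−0.87 relative to core macrophage markers, −0.01 in the higher-numbered series alone, 0.01 without wild type 3 and 0.03 without knockout 3). The leukocyte tetraspanins Cd37 (0.99, SE 0.25) and Cd53 (0.97, SE 0.45) differed most, and 1 relative had an unadjusted limma p under 0.05.

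Within the higher-numbered series the 8 differences were 2.09 (Cd9) to 5.24 (Atp6v0d2), and all 8 passed limma there, where 2.03% of genes passed upward. Within the lower-numbered pair, where each group has 1 array and there is no test, they were 0.11 (Lipa), 0.12 (Tyrobp), 0.13 (Cd9), 0.73 (Lgals3), 1.18 (Trem2), 1.29 (Gpnmb), 1.35 (Atp6v0d2) and 1.46 (Itgax). All were positive, and the 3 smallest were under the wild-type SD of the same gene (0.22 to 0.47). Knockout 3 exceeded every wild type in 8 of 8 genes, as it did in 23.2% of all genes. The lower pair minus the higher-numbered series was −3.88 (Atp6v0d2, SE 0.57) to −1.68 (Lgals3, SE 0.39) for the 8 genes. This comparison was chosen after the data were seen, and its SE and p rest on the spread of the 4 higher-numbered arrays alone, with the 2 lone arrays of the lower pair assumed to vary like them. None passed limma over all genes (adjusted p 0.283 to 0.512), nor did any other gene (0%). At an unadjusted p under 0.05 all 8 did, and 4.05% of all genes did in that direction. The mammary markers stood higher in both arrays of the lower pair and the Gapdh difference in its wild type alone, as given above, and their part in this was not tested.

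Promoter windows of 300 bases (250 before to 50 after the start site) were held by the RefSeq table of GRCm38.p6 for 6 of the 8 genes, and 11 motifs were searched on both strands. Tyrobp and Atp6v0d2 had no window and were not searched. The AP-1 motif TGANTCA was found in Trem2, Itgax and Gpnmb, 3 of 6 genes, and in 7.81% of all 32851 windows. A gene counted as matched if any window under its symbol matched, while the shares are of single windows, so the units differ. These are the stretches from 80 bases before to 20 after each start site, on the plus strand and written 5′ to 3′, with the AP-1 match in capitals. They are shown because these genes share the match and are among the 4 with differences near or above 3 log2. The remaining gene of those 4, Atp6v0d2, had no window to search.
Trem2, chr17:48346321-48346420: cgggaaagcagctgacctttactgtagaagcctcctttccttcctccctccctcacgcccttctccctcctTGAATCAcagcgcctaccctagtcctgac
Itgax, chr7:128129470-128129569: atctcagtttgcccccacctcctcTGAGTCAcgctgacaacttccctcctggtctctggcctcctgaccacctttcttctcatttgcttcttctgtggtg
Gpnmb, chr6:49036438-49036537: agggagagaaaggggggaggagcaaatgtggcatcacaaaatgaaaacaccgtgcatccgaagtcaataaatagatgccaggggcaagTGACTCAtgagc
The match starts 9 bases before the start site in Trem2, 56 before it in Itgax and at transcribed base 9 in Gpnmb. The PU.1 motif GAGGAAG was found in Trem2 and Lipa (13.6% of all windows) and the ETS motif GGAAGT in Itgax and Lipa (23.8%). The CCAAT box was found in 4 of 6 genes (37.4%), CATGTG in Cd9 (14.2%) and TATAAA in Lipa (13.6%). No match was found for CACGTG, the E-box of the lysosomal regulators TFEB and TFE3 (7.15%), for its longer form TCACGTG (3.77%) or for the MITF motif TCATGTG (3.77%), which contains the letters found in Cd9. None was found either for the longer PU.1 motif AGAGGAAG (4.55%), which contains the shorter one, or for the cyclic AMP response element TGACGTCA (1.79%). A match describes letters and not a bound site, and the motifs were chosen with the differences known.

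The shift of macrophage RNA as a whole was read from 11 core macrophage markers. All 11 read higher in knockout, with a median difference of 1.07. Their mean level was 7.96 to 8.16 in wild type and 9.41, 9.46 and 8.46 in knockouts 1 to 3. Of these markers 6 had an unadjusted limma p under 0.05 (6.71% of all genes upward) and 5 did not overlap (7.72% upward). Among them were the complement gene C1qc (1.07, SE 0.23), the myeloid transcription factor gene Spi1 (1.48, SE 0.32), C1qb (1.12, SE 0.28) and C1qa (1.43, SE 0.37). In Adgre1, Fcgr1, Mertk, Itgam, Cd14 and Aif1 knockout 3 lay below the highest wild type, and in Csf1r only 0.001 above it. Of the 11 markers none passed limma over all genes, and 5 passed without knockout 3 (3.16% of all genes upward).

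After the mean of these markers was subtracted on each array, the differences of the 8 genes shrank by 1.02 and stayed positive. Atp6v0d2 remained 2.92 higher (SE 1.05 from its own spread), Gpnmb 2.58 (SE 0.89), Itgax 2.28 (SE 0.51), Trem2 1.91 (SE 0.58) and Lgals3 0.82 (SE 0.24). In these 5 the groups did not overlap, which held upward for 0.423% of all genes on this scale, where the median gene moved by −1.06. A two-sided exact permutation test gave p = 0.1 for each, the smallest that 3 against 3 arrays allow. Lipa (0.88, SE 0.49), Tyrobp (0.51, SE 0.35) and Cd9 (0.41, SE 0.34) overlapped on this scale, each with exact permutation p = 0.2. Which genes overlap depended on the reference. With Adgre1 and Csf1r alone subtracted the groups of all 8 genes did not overlap, at 0.34 (Cd9) to 2.84 (Atp6v0d2) higher. Knockout 3 stood only 0.23 (Adgre1) and 0.05 (Csf1r) above the wild-type means of these 2 markers, so their subtraction lowered that array little. With these 2 subtracted the median gene moved by −1.13. The share of all genes without overlap on that reference is not given here, so this count has no base rate.

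Relative to the core markers Itgax read −2.25, −2.70 and −1.83 in wild type and 0.39, 0.52 and −0.87 in knockout. Knockout 3 was above all wild types by 0.96 there. Trem2 read −2.80, −2.88 and −2.72 against −0.18, −0.44 and −2.03. For Lipa, knockout 3 (0.66) lay inside the wild-type range of 0.47 to 1.05. Limma on this scale estimated a single variance for all genes, so its calls for Atp6v0d2, Gpnmb, Itgax and Trem2 (4 of 8, against 0.44% of genes upward and 53.1% downward) rest on a spread smaller than their own. With Adgre1 and Csf1r alone subtracted the same 4 genes passed, against 0.0989% of genes upward.

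**Figure D2:**
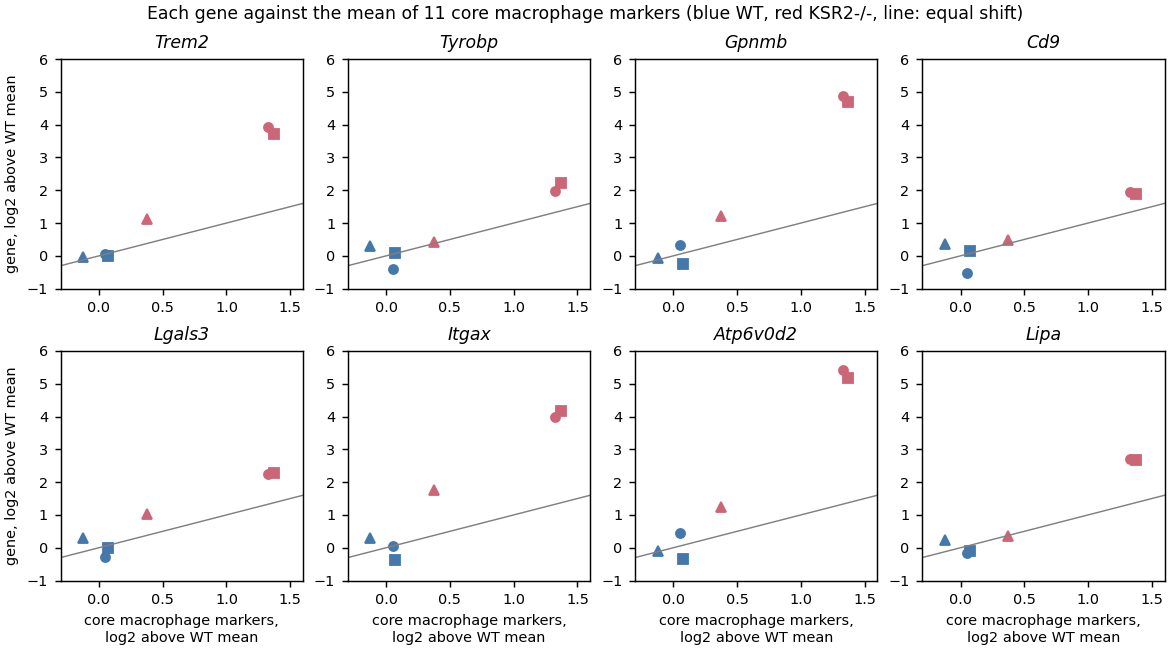
Shift of each gene from its wild-type mean (vertical, log2) against the shift of the mean of 11 core macrophage markers (horizontal, log2), 1 point per array, wild type blue and KSR2-/- red, with circles, squares and triangles for animals 1 to 3. The grey line marks equal shifts; the 3 red points of Trem2, Gpnmb, Itgax and Atp6v0d2 lie above it, while knockout 3 lies near it for Tyrobp, Cd9 and Lipa.

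**Figure D3:**
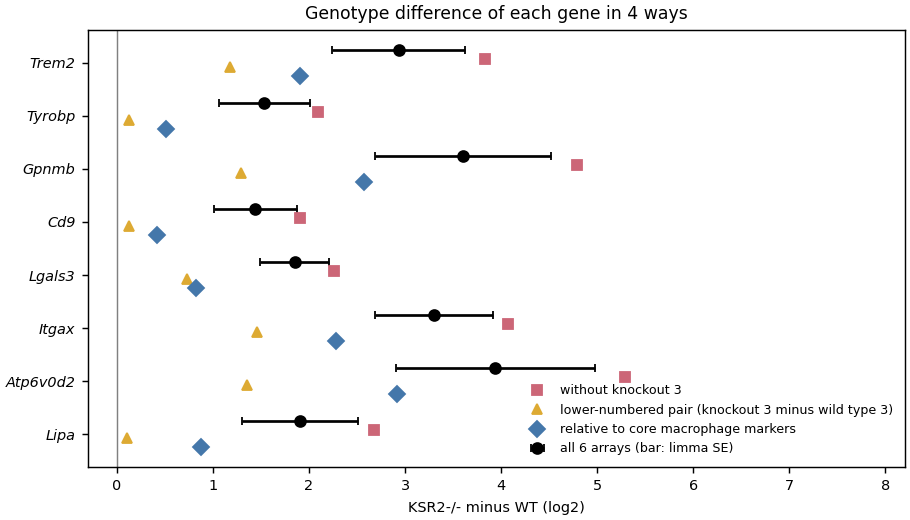
Difference between KSR2-/- and wild type (log2) of the 8 genes over all 6 arrays with its limma SE, without knockout 3, in the lower-numbered pair, and relative to the core macrophage markers. All points lie right of 0, with the lower-numbered pair at 0.11 to 1.46 and the comparison without knockout 3 at 1.91 to 5.29.

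Markers of resident tissue macrophages did not share the direction. Of 10 measured, 6 were lower and 4 higher, with a median of −0.32 (−0.18 without knockout 1, −0.19 without wild type 3, −0.21 without wild type 2 and −0.06 over brighter genes alone), and 3 were lower at an unadjusted limma p under 0.05 (5.38% of all genes in that direction) with 0 higher. Those 3 were the lectin gene Cd209f (−1.04, SE 0.25), the hyaluronan receptor gene Lyve1 (−0.59, SE 0.20) and Timd4, a phosphatidylserine receptor gene (−0.71, SE 0.29). Their groups did not overlap, as in 8.56% of genes downward. Lyve1 read 9.02, 9.65 and 9.23 in wild type and 8.69, 8.67 and 8.78 in knockout, so here knockout 3 lay with the other knockouts. The scavenger receptor gene Cd163 differed by −0.58 (SE 0.32). Without knockout 3, 2 markers passed limma as lower and 1 as higher. The latter, named after its values were seen, was the folate receptor gene Folr2, which read 9.35 to 9.47 in wild type and 10.49, 10.26 and 9.09 in knockout.

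Genes that act around TREM2 were taken as a list of ligands, sheddases and signalling proteins, of which 13 were measured, 11 of them higher, with a median of 0.80 (−0.23 relative to the core macrophage markers). Of them 8 were higher and 0 lower at an unadjusted limma p under 0.05, and none passed over all genes. Without knockout 3, 8 passed. Among signalling genes, Lat2, an adaptor of immune receptors, differed by 2.28 (SE 0.64), the exchange factor gene Vav1 by 1.65 (SE 0.44), the kinase gene Btk by 1.40 (SE 0.44) and the phosphatase gene Ptpn6 by 0.77 (SE 0.21). Lat2 read 5.07, 4.31 and 4.75 in wild type and 7.64, 7.93 and 5.38 in knockout, with knockout 3 the lowest knockout, as for Trem2. The ligand genes did not follow: Apoe, a lipoprotein that TREM2 binds, differed by −0.04 (SE 0.20) and Clu, another, by −0.01 (SE 0.29).

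A further 17 genes reported for lipid-associated macrophages were all measured, with 15 higher, 13 without overlap and a median of 0.86 (−0.16 relative to the core markers). At an unadjusted limma p under 0.05, 11 were higher and 0 lower, none passed over all genes and 10 passed without knockout 3. Mmp12, macrophage elastase, read 4.88, 4.96 and 5.48 in wild type and 12.39, 12.18 and 8.95 in knockout. Its difference of 6.07 (SE 0.86, limma adjusted p = 0.152), or 5.04 relative to the core markers, exceeded that of each of the 8 genes. Pld3, a lysosomal nuclease gene, differed by 1.69 (SE 0.32), the lipid droplet gene Plin2 by 1.00 (SE 0.20) and the cathepsin gene Ctsz by 0.98 (SE 0.25). Lpl and Cd36, which adipocytes also express, differed by −0.01 (SE 0.14) and 0.20 (SE 0.15). Lpl read 13.40 to 13.51 over all arrays, near the top of the intensity scale, where a rise may not show.

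Regulators of lysosome genes and other proton pump subunits, 16 measured, were higher in 15, with a median of 0.47 (−0.56 relative to the core markers). Of them 4 had an unadjusted limma p under 0.05, all higher, none passed over all genes and 4 passed without knockout 3. Smallest in unadjusted p were the pump subunit genes Atp6v0a1 (1.53, SE 0.19), Atp6v1b2 (1.30, SE 0.33), Atp6v1c1 (1.03, SE 0.27) and Atp6v0b (0.75, SE 0.25). The largest difference was that of the regulator gene Tfec (1.64, SE 0.75). Its knockout 3 (3.83) lay inside the wild-type range of 3.68 to 4.43. The other regulator genes Tfeb, Tfe3 and Mitf differed by 0.36 (SE 0.27), 0.37 (SE 0.34) and 0.56 (SE 0.37). Atp6v0a1 read 6.96, 6.73 and 7.22 in wild type and 8.48, 8.67 and 8.35 in knockout, so knockout 3 lay near the other knockouts there, unlike for Atp6v0d2.

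Because Atp6v0d2 is known from osteoclasts, 10 genes of osteoclasts and cell fusion were read. They did not share a direction, with 6 higher, a median of 0.22 (−0.80 relative to the core markers, −0.08 over brighter genes alone, 0.10 without wild type 3, 0.11 without knockout 2 and 0.35 without knockout 3), 2 higher and 1 lower at an unadjusted limma p under 0.05 and 0 past it over all genes. The protease gene Ctsk read 7.98, 7.99 and 8.01 in wild type and 11.01, 11.15 and 8.43 in knockout (2.20, SE 0.68). Dcstamp, needed for the fusion of macrophages, differed by 1.41 (SE 0.54), with knockout 3 (4.48) inside the wild-type range of 4.35 to 4.56. Mmp9 was lower (−1.25, SE 0.32), and Nfatc1 differed by 0.36 (SE 0.17). Counts without knockout 3 were 2 past the threshold, both higher.

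Partners of Itgax and integrins or receptors that bind osteopontin, the product of Spp1, were higher in 9 of 10, with a median of 0.56 (−0.47 relative to the core markers), 2 of them at an unadjusted limma p under 0.05. These were Itgb2 and the hyaluronan and osteopontin receptor gene Cd44 (1.89, SE 0.54), and the integrin genes Itga4 (0.81, SE 0.36) and Itgal (0.65, SE 0.29) followed. None passed over all genes, and 3 did without knockout 3. Galectin relatives differed little, 4 of 6 higher with a median of 0.14 (−0.89 relative to the core markers and 0.09 without wild type 1). Lgals12, a galectin gene of adipocytes, was the 1 relative with an unadjusted limma p under 0.05, and it was lower (−1.14, SE 0.29).

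**Figure D4:**
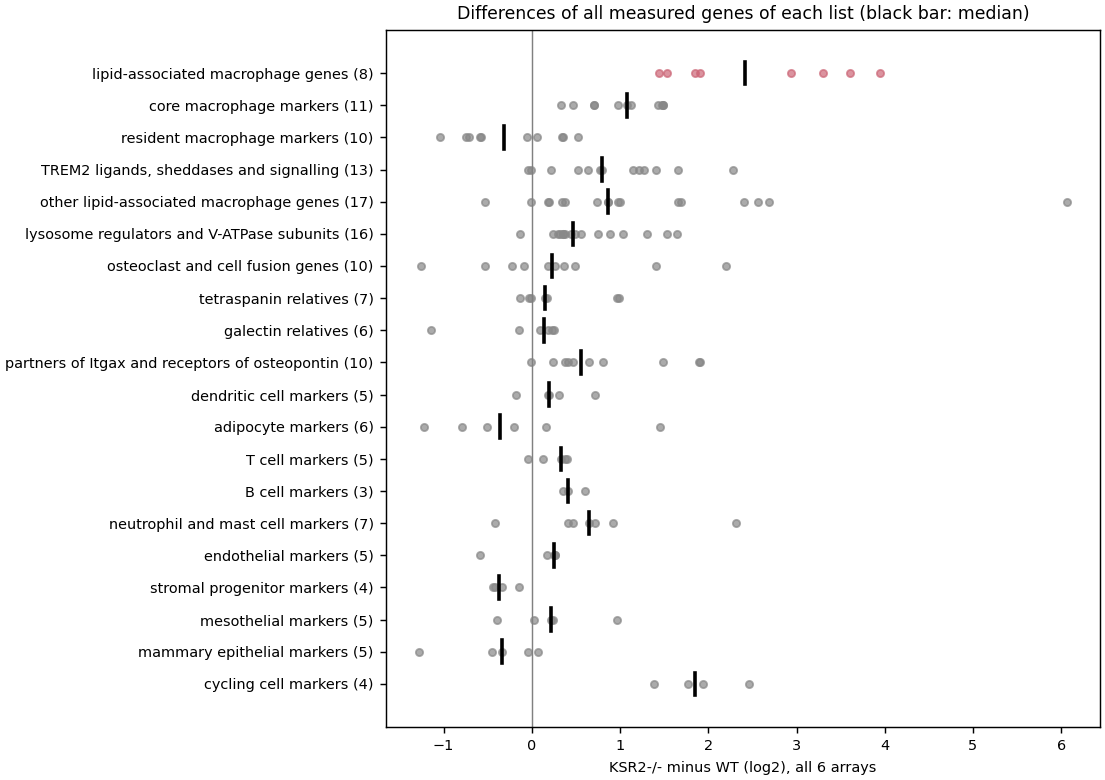
Difference between KSR2-/- and wild type (log2, all 6 arrays) of every measured gene of each list, with the number measured in brackets and the median as a black bar. The lipid-associated macrophage genes, in red at the top, have a median of 2.42, followed by cycling cell markers at 1.85 and core macrophage markers at 1.07.

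Markers of other cells were read because Itgax, Cd9 and Lgals3 are not limited to macrophages. Dendritic cell markers (5 measured, 4 higher) had a median of 0.19 (0.33 without wild type 1 and 0.06 over brighter genes alone) and 0 at an unadjusted limma p under 0.05, with Ccr7 at 0.71 (SE 0.49). Their mean level was 4.79 to 5.40 in wild type and 5.13 to 5.46 in knockout. T cell markers (4 of 5 higher, median 0.33, 0.79 without wild type 1, −0.13 without wild type 2 and −0.02 without knockout 1) and B cell markers (3 of 3 higher, median 0.41, 0.93 without wild type 1, 0.16 without wild type 3) also had 0 at that p. Endothelial markers had a median of 0.25 (−0.02 without wild type 1, 0.46, 0.10 and 0.07 without knockouts 1, 2 and 3 in turn). Stromal progenitor markers had one of −0.37 (−0.16 without wild type 3 and −0.05 without knockout 1), with Pdgfra lower (−0.41, SE 0.17). These lists overlapped between the groups in mean level, unlike the 8 genes.

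Cycling cell markers stood higher on the same arrays as the 8 genes, 4 of 4 higher with a median of 1.85 and a mean level of 5.05 to 5.40 in wild type and 7.47, 8.16 and 5.65 in knockouts 1 to 3. Birc5 (2.46, SE 0.65) and Mki67 (1.94, SE 0.63) led, all 4 had an unadjusted limma p under 0.05, and all 4 passed without knockout 3. Of 7 neutrophil and mast cell markers 6 were higher (median 0.65, mean level 5.93 to 6.27 in wild type and 6.30 to 7.13 in knockout), with S100a8, a calcium-binding protein of neutrophils and monocytes, at 2.31 (SE 0.47) and 3 at an unadjusted limma p under 0.05. Without wild type 3, 1 of the 7 was higher at that p. S100a9 differed by 0.92 (SE 0.70) with overlapping groups, and by 0.04 in the higher-numbered series. Adipocyte markers were lower in 4 of 6 (median −0.36, −0.09, −0.22 and −0.75 without knockouts 1, 2 and 3 in turn, 0.12 in the lower-numbered pair), 2 of them past limma without knockout 3, with mean levels of 11.24, 11.56 and 12.50 in knockouts 1 to 3 and 11.64 to 12.17 in wild type. Among them the hormone gene Retn differed by −1.23 (SE 0.42) and the leptin gene Lep by 1.45 (SE 0.57). Mesothelial markers had a median of 0.21 (0.41, 0.47 and −0.24 without knockouts 1, 2 and 3 in turn), with a mean level of 8.72 in knockout 3 against 6.74 to 7.74 on the other arrays, and mammary epithelial markers one of −0.33 (0.45 without wild type 3, −0.60 without wild type 1, 0.16 without knockout 1, −0.90 without knockout 3 and 0.28 with the Gapdh difference as a covariate). Relative to the core macrophage markers, every list of other cells but the cycling markers had a negative median. That subtraction lowers the difference of every gene by 1.02, and the median of all genes moved to −1.06. A negative median therefore follows for any list with a smaller shift and says nothing particular about those cells. The part of these other cells in the differences of the 8 genes was not tested.

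Genes with the profile most like Trem2 were ranked by the root mean square distance of their log2 levels over the 6 arrays, each centred on its own mean. The ranking covered 9089 genes of at least median brightness, taken as the mean over all 6 arrays, knockouts included. Nearest were Tlr13, an endosomal receptor for bacterial RNA (distance 0.19), the transcription factor gene Egr2 (0.19), the stress-response factor gene Atf3 (0.26), the leukocyte receptor gene Cd84 (0.28) and Arhgap25 (0.29). Tlr13 read 4.84, 5.18 and 4.81 in wild type and 8.65, 8.94 and 6.07 in knockout. On every wild-type array Tlr13, Egr2 and Arhgap25 lay below the median gene (5.77 to 6.07), so they passed that filter through their knockout levels. For the mean profile of the 8 genes the nearest were the myeloid receptor gene Cd300lb (0.15), Egr2 (0.20), Cd84 (0.21), the complement receptor gene C3ar1 (0.21) and Ctsk (0.22). Cd84 is on the list of further lipid-associated macrophage genes and Ctsk on the osteoclast list. The distances describe 6 arrays on which knockouts 1 and 2 dominate.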

How the data were processed

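The authors deposited RMA intensity values of 45101 probe sets on 6 arrays, with the method per the submitters' processing notes and the linear scale taken from the values. RMA normalizes and summarises all arrays together, so the arrays are not independent at that step. Log2 was taken without a pseudocount. Of the probe sets, 34945 had 1 gene in the platform annotation, 932 several, 9160 none listed, and 64 were controls. Symbols were updated through gene identifiers to RefSeq (34741 matched). Each of 18193 genes was represented by its single-gene probe set of highest mean, with no filter.

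Limma 3.58.1 (lmFit and eBayes, R 4.3.3) tested knockout against wild type on both sides. P-values were adjusted by Benjamini-Hochberg across the 18193 genes, with 0.05 as the threshold. SEs are moderated unless stated. The fit was tested on simulated data. The number of arrays limits the precision (median SE 0.22 log2). Named genes are the members, up to 4 of each list by smallest unadjusted p, and 5 nearest profiles for each of 2 references. Nceh1, Atp6v0d1, Lgals1, Apoe, Clu, Lpl, Cd36, Tfec, Tfeb, Tfe3, Mitf and S100a9 were added after their values were seen. Members and lists were chosen with earlier results of these data known, so their direction is not independent evidence. Per the labels, each array is 1 mouse. Alternatives changed the filter, probe sets, scaling, reference level, variance model, block, covariate, pseudocount and arrays.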

Additional observations from a re-analysis of the deposited data

How the results depend on the processing

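All 8 genes kept a positive difference under all 19 tested alternatives and in the lower-numbered pair. Many of these could not have changed the sign. With every knockout array above every wild-type array, it was fixed for any subset of arrays, the lower-numbered pair included. The brighter genes, the fit of every probe set, the trend and the block left the differences themselves unchanged. Brightness was the mean over all 6 arrays, so Trem2 and Atp6v0d2, with wild-type means of 5.29 and 5.46, counted as bright through their knockout levels. The count of the 8 past the threshold was 0 in the main analysis and 0 to 8 with 1 array left out, 8 in the higher-numbered series alone, and 4 both with the core macrophage markers and with Adgre1 and Csf1r subtracted, the latter chosen after seeing the data. With the resident macrophage markers subtracted, also chosen after seeing the data, the count was 0. The count at an unadjusted p under 0.05 was 4 with the core markers or with Adgre1 and Csf1r subtracted and 7 to 8 otherwise. With the core markers subtracted, 5 rather than 8 genes did not overlap. Limma estimated 1 common variance with the core markers or with Adgre1 and Csf1r subtracted, but not with the resident markers subtracted. Over all genes the count past the threshold was 1 in the main analysis and 0 to 816 with 1 array left out. It was 12 for brighter genes alone, 0 with every probe set fitted, 12 with repeated quantile normalization, 16 with centring on the median gene, 10 with trend, 0 with the animal series as a block, 6 with the Gapdh covariate, 0 with a pseudocount of 16 and 487 in the higher-numbered series alone. With a reference subtracted it was 9740 for the core markers, 757 for Adgre1 and Csf1r and 40 for the resident macrophage markers. Averaging the probe sets of a gene lowered Trem2 from 2.94 to 1.57. No paired analysis was possible because the labels hold no shared replicate numbers.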
